A study of Mus musculus with 12 samples.

Results

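A set of 9 genes that mark neutrophils in mouse tissue was followed in pancreatic tumors from young and old mice. The genes were S100a8, S100a9, Csf3r, Retnlg, Il1r2, Trem1, G0s2, Stfa2l1 and Hdc, listed by name, and they are 9 of the 47643 genes in the deposited tables. All 9 had a row, and 8 of them had enough reads for the test of old against young; Stfa2l1 did not. The T cell gene Cd3e and the macrophage gene Csf1r served as references for other leukocytes. The libraries were bulk poly(A) RNA sequencing of pieces of pancreatic tumor grown from KPC4662, a mouse pancreatic ductal adenocarcinoma line, with 6 libraries labelled Young tumor and 6 labelled Old tumor. No genotype, added agent, sampling time, mouse age, strain, sex or implantation route is given in the labels used here, and every tumor comes from the same line. The labels name the cell type as epithelial, but whole tumor pieces were extracted and leukocyte transcripts were present in each library. The labels do not say that the pieces of an age are from different mice, so the p-values measure only the spread between these pieces.

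Neutrophils are short-lived phagocytes made in the bone marrow under the growth factor G-CSF, whose receptor is encoded by Csf3r. They pack their cytosol with the calcium-binding proteins S100A8 and S100A9, which pair as calprotectin, and they are drawn into tissue by CXC chemokines acting on CXCR2. In pancreatic tumors they are a regular part of the myeloid infiltrate, beside macrophages, which depend on the CSF1 receptor encoded by Csf1r.

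No neutrophil gene passed the test between ages. Of the 8 tested genes, 0 had an adjusted p under 0.05 in edgeR's quasi-likelihood test with Benjamini-Hochberg adjustment over 16013 genes, a test in which 2.26% of all genes were called. At an unadjusted p under 0.05 stood 1 of the 8, Il1r2, beside 21.1% of all genes. DESeq2 and limma-voom also called 0 of the 8. The log2 fold change, old over young, lay below 0 for 6 genes and above 0 for 2, with a median of -0.46 beside 0.03 over all tested genes. That median turned on single libraries. It was -0.15 without Young tumor 3, with 5 genes below 0, and -0.79 without Old tumor 1, with 7 below 0. Without both it was -0.37, with 7 below 0. CPM, the count scaled to library size, overlapped between the 2 ages for all 9 genes and both references, whereas 2.97% of tested genes had ranges that did not overlap. In bulk samples, fewer cells of a type and less RNA per cell cannot be told apart.

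**Figure D1:**
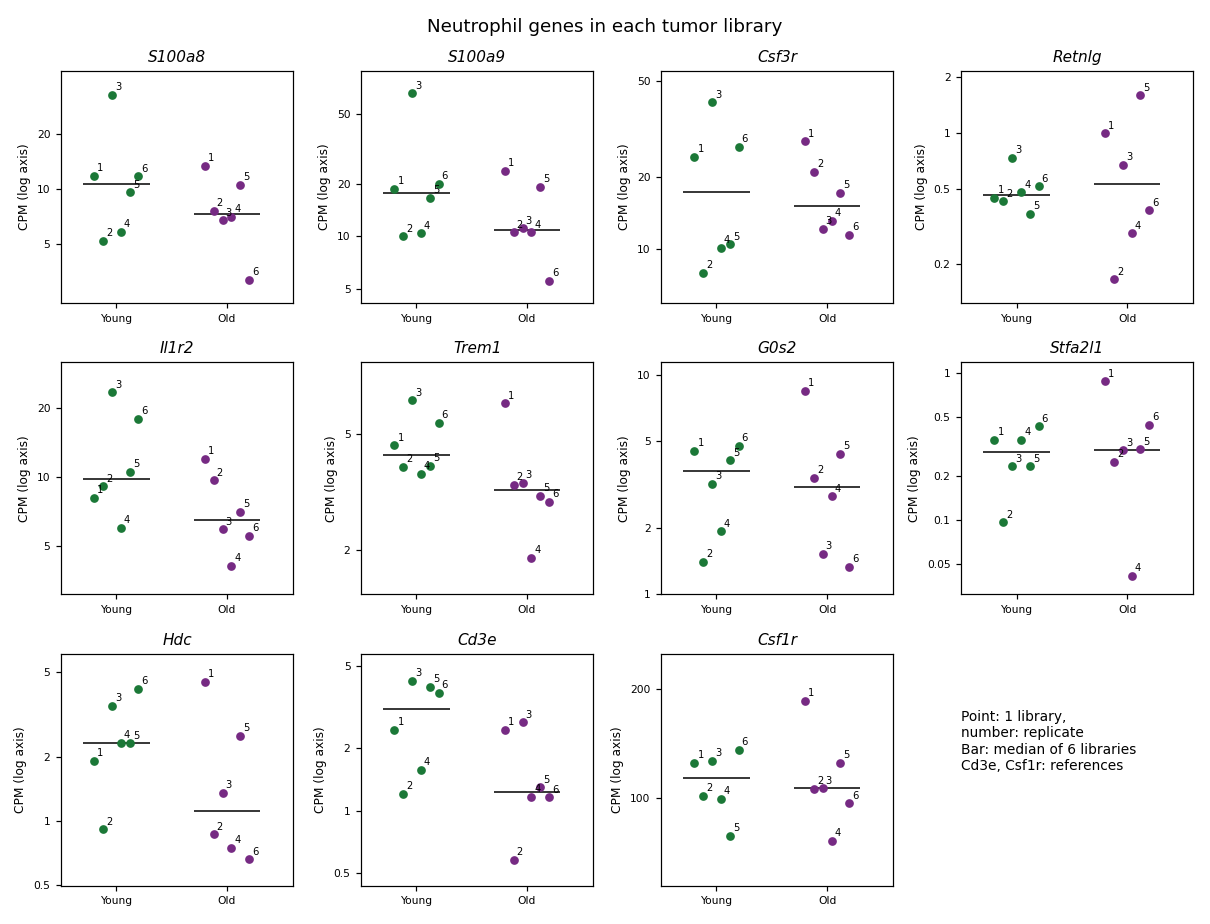
Each panel plots CPM on a log axis for 1 gene, with a point for each library, numbered by replicate, and a bar at the median of the 6 libraries of an age. Young tumor 3 and Old tumor 1 sit at or near the top of most panels, and the ages overlap in every panel.

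The libraries held 17.8M to 24.1M counts. That depth left few reads on the scarcest genes, from 1 to 21 counts for Stfa2l1 and from 4 to 37 for Retnlg, against 100 to 1419 for S100a9. Library-to-library variation exceeded counting error for the abundant members. The biological coefficient of variation fitted by edgeR ran from 32.4% for Trem1 to 57.2% for Hdc, against 23.4% for Csf1r. High values gathered in a few libraries. Old tumor 1 was among the 3 highest libraries for 9 of the 9 genes, and Young tumor 3 and Young tumor 6 were for 7 each. Old tumor 6 was among the 3 lowest for 6 genes, Young tumor 2 and Old tumor 4 for 5 each. Results that turn on Young tumor 3 or Old tumor 1 are therefore given with and without them.

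Levels of different genes can be compared only per transcript length, as TPM, the abundance of transcripts scaled to a fixed sum per library. S100a9 was the most abundant of the 9, with a median of 48.2 TPM over the 12 libraries and a range of 21.5 to 239. S100a8 followed at 32.4 TPM (13.2 to 127), and S100a9 exceeded it in 12 of 12 libraries. Csf3r at 11.8 TPM and Il1r2 at 11.5 TPM were not separated, since Csf3r was the higher in 6 of 12 libraries. G0s2 came next at 6.81 TPM, below Il1r2 and above Trem1 in every library. Trem1 had 1.94 TPM, Stfa2l1 1.48, Hdc 1.34 and Retnlg 1.31, and the order of the last 3 changed from library to library. Against the references, S100a9 exceeded Csf1r (median 44.5 TPM) in 8 of 12 libraries, S100a8 did so in 2, and the other 7 genes in none. S100a9, S100a8, Csf3r and Il1r2 exceeded Cd3e (median 2.21 TPM) in every library. S100a8 and S100a9 together made up 56.4% to 82.5% of the summed TPM of the 9 genes, with the lowest share in Old tumor 6 and the highest in Young tumor 3.

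S100a8 and S100a9 lie 22596 bases apart on chromosome 3 in mm10, S100a8 at chr3:90668978-90670035 on the plus strand and S100a9 at chr3:90692632-90695721 on the minus strand. Because this pair varied together more tightly than any other pair of the 9, the sequence just before each gene is shown, from RefSeq's GRCm38.p6 promoter windows (250 bases before a gene's start to 50 after), kept to the bases ahead of both the RefSeq and the GENCODE start. Capitals mark matches to the motif TTGCNNAA, bound by C/EBP factors, or to GAGGAAG, bound by PU.1, searched on both strands.
S100a8, chr3:90668821-90668977, plus strand: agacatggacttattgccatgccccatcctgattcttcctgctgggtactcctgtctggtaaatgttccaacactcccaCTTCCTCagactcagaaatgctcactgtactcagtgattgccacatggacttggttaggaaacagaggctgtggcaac
S100a9, chr3:90695722-90695971, minus strand: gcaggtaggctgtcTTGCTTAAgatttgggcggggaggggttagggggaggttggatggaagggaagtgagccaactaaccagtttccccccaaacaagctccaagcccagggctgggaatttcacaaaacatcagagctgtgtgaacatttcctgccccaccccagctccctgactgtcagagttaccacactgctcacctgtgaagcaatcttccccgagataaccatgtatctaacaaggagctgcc
The capitals in S100a8 are GAGGAAG read on the opposite strand and begin at -171 from the RefSeq start. The capitals in S100a9 are a TTGCNNAA match that begins at -236. Neither of these windows held the other's motif, and the 2 motifs do not overlap in any window of the 9. In full windows of 300 bases, TTGCNNAA was found for 2 of the 9 genes, S100a9 and Retnlg, and in 10.8% of 32544 windows. GAGGAAG was found for 2 of the 9, S100a8 and Csf3r, and in 13.4% of all windows. These matches describe letters only and say nothing of binding.

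S100a8 encodes the smaller partner of calprotectin. It ranged from 5.25 to 32.7 CPM in young tumors, with a median of 10.7, and from 3.20 to 13.4 CPM in old ones, with a median of 7.36. Young tumor 3 was the highest library and Old tumor 6 the lowest, and 1 of 6 old libraries exceeded the young median. The log2 fold change was -0.66 (SE 0.43, 95% interval -1.58 to 0.26, adjusted p = 0.396 by edgeR). S100a9, the larger partner, ranged from 9.97 to 65.6 CPM in young tumors (median 17.6) and from 5.52 to 23.6 CPM in old ones (median 10.8). Young tumor 3 again stood alone at the top, and Old tumor 6 at the bottom. The S100a9 log2 fold change was -0.81 (SE 0.46, 95% interval -1.80 to 0.18, adjusted p = 0.333 by edgeR), a fold of 0.571 with an interval of 0.288 to 1.13. Without Young tumor 3 the log2 fold changes were -0.12 for S100a8 and -0.17 for S100a9, and without Old tumor 1 they were -0.89 and -1.08. Leaving out both libraries gave -0.33 and -0.41. The TPM of S100a8 was 0.530 to 0.672 of that of S100a9 in young tumors and 0.585 to 0.770 in old ones, so the proportion of the partners overlapped between ages.

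Csf3r, the G-CSF receptor gene (chr4:126024550-126044440, plus strand), ranged from 7.99 to 40.9 CPM in young tumors, with a median of 17.4, and from 11.5 to 28.1 CPM in old ones, with a median of 15.2. The young libraries held both the highest value, in Young tumor 3, and the lowest, in Young tumor 2. Old tumors differed from young ones by a log2 fold change of -0.22 (SE 0.38, 95% interval -1.04 to 0.59, adjusted p = 0.775 by edgeR). Its sign was not stable. It was 0.12 without Young tumor 3 and 0.24 on the log2(TPM + 1) scale, where the median of all genes was 0.13.

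Il1r2 (chr1:40074079-40125231, plus strand) encodes the decoy receptor that binds interleukin-1 without signalling. It ranged from 5.96 to 23.4 CPM in young tumors (median 9.78) and from 4.08 to 11.9 CPM in old ones (median 6.47). Young tumor 3 and Young tumor 6 were the highest libraries, and 1 of 6 old libraries exceeded the young median. Between ages the log2 fold change was -0.76 (SE 0.34, 95% interval -1.49 to -0.03), with an edgeR p of 0.0419 and an adjusted p of 0.217. It was -0.48 without Young tumor 3 and -0.97 without Old tumor 1, where the edgeR adjusted p was 0.10.

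Trem1 (chr17:48232768-48246924, plus strand) encodes a receptor that amplifies inflammatory signalling in neutrophils and monocytes through the adaptor encoded by Tyrobp. It ranged from 3.64 to 6.52 CPM in young tumors (median 4.23) and from 1.88 to 6.37 CPM in old ones (median 3.20). Old tumor 1 was the 1 old library above the young median, and the other old libraries lay below every young one. The log2 fold change was -0.41 (SE 0.26, 95% interval -0.97 to 0.15, adjusted p = 0.385 by edgeR). Without Old tumor 1 it was -0.69 with an edgeR adjusted p of 0.0677, the lowest that any neutrophil gene reached when a single library was left out.

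G0s2 (chr1:193272161-193273217, minus strand) encodes an inhibitor of the lipase encoded by Pnpla2 and is expressed in fat cells as well as neutrophils. It ranged from 1.40 to 4.76 CPM in young tumors (median 3.63) and from 1.32 to 8.49 CPM in old ones (median 3.09). Old tumor 1 was the highest library. Old against young gave a log2 fold change of 0.14 (SE 0.43, 95% interval -0.79 to 1.08, adjusted p = 0.881 by edgeR), and without Old tumor 1 it was -0.32. Old tumor 1 also had by far the most adipocyte RNA, with 385 CPM summed over 8 markers, against 17.5 to 31.1 in young tumors and 23.8 to 58.8 in the other old ones. The part of fat cells in the G0s2 values was not tested.

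Hdc (chr2:126593667-126619299, minus strand) encodes histidine decarboxylase, the enzyme that makes histamine, and is also a gene of mast cells and basophils. It ranged from 0.915 to 4.15 CPM in young tumors (median 2.32) and from 0.662 to 4.50 CPM in old ones (median 1.11). Old tumor 1 was the highest library, and 2 of 6 old libraries exceeded the young median. Old against young gave a log2 fold change of -0.50 (SE 0.48, 95% interval -1.54 to 0.54, adjusted p = 0.582 by edgeR). It was -1.05 without Old tumor 1, with an edgeR adjusted p of 0.141. The summed CPM of 11 mast cell and basophil markers was 137 to 186 in young tumors and 75.8 to 161 in old ones. Most of each sum was Mcpt8, a basophil protease gene, at 114 to 166 CPM in young tumors and 42.1 to 115 in old ones. No other marker of the list exceeded 19.4 CPM in any library. Fcer1a reached at most 0.908 CPM and Ms4a2 at most 0.601, so the sums do not measure the list evenly. None of the 9 tested markers of that list was called, and Mcpt8 came closest with a log2 fold change of -0.67 (SE 0.20, adjusted p = 0.0807 by edgeR). Their part in the Hdc values was not tested.

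Retnlg and Stfa2l1 were the scarcest by count. Retnlg (chr16:48872621-48874496, plus strand) encodes a secreted resistin-like protein made by neutrophils. It ranged from 0.370 to 0.740 CPM in young tumors (median 0.467) and from 0.165 to 1.6 CPM in old ones (median 0.533). The old libraries were the more spread, with both the highest value, in Old tumor 5, and the lowest, in Old tumor 2. Between ages the log2 fold change was 0.46 (SE 0.47, 95% interval -0.54 to 1.46, adjusted p = 0.604 by edgeR), and 0.03 without Old tumor 5. limma-voom with library weights gave -0.30, so its direction is unsettled. Stfa2l1 (chr16:36156811-36161953, plus strand) encodes a stefin A protein, an inhibitor of cysteine cathepsins. It ranged from 0.0963 to 0.433 CPM in young tumors (median 0.291) and from 0.0417 to 0.874 CPM in old ones (median 0.300). Old tumor 1 was the highest library and Old tumor 4 the lowest. Fitted without the filter on low counts, Stfa2l1 had a log2 fold change of 0.36 (SE 0.56, adjusted p = 0.770 by edgeR). Of its 50-base words, 24.6% also occur in transcripts of other genes, Stfa2 among them, and 0% of its 100-base words do, so its counts are uncertain where reads were short. Csf3r shares 10.5% of its 50-base words with other transcripts, Hdc 0.141%, and the other 6 genes none. The sources used here do not state a read length.

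**Figure D2:**
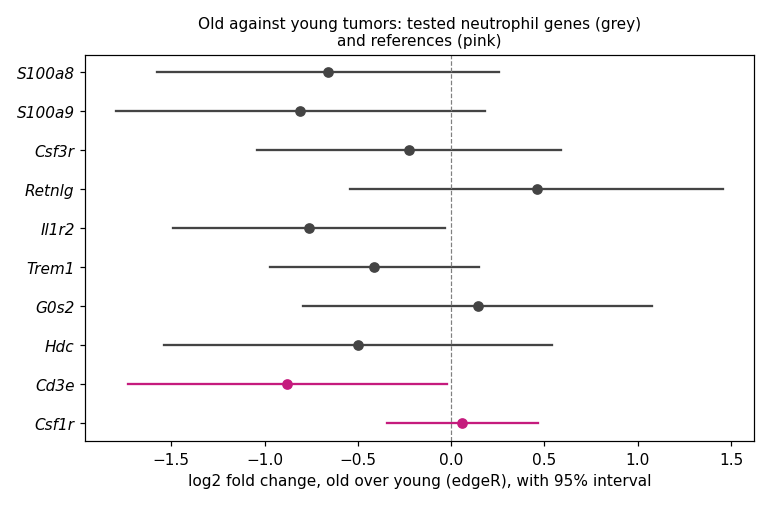
The log2 fold change of old over young from edgeR is plotted for the 8 tested neutrophil genes and the 2 references, with its 95% interval. The intervals of Il1r2 and Cd3e end just below 0, at -0.03 and -0.02, and the others include 0.

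The references did not pass the test either. Csf1r ranged from 78.5 to 136 CPM in young tumors (median 113) and from 76.3 to 185 CPM in old ones (median 106), with a log2 fold change of 0.06 (SE 0.19, adjusted p = 0.885 by edgeR). Its sign changed without Old tumor 1, to -0.14. Cd3e, a chain of the T cell receptor complex, ranged from 1.20 to 4.26 CPM in young tumors (median 3.09) and from 0.578 to 2.67 CPM in old ones (median 1.23). No old library exceeded the young median of Cd3e. Its log2 fold change was -0.88 (SE 0.40, 95% interval -1.73 to -0.02), with an edgeR p of 0.0448 and an adjusted p of 0.223.

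The neutrophil genes were next set against Csf1r within each library, to ask whether they differed between ages relative to macrophage RNA. The measure was the log2 CPM of a gene minus that of Csf1r, tested with limma over 16012 genes. Of the 8 tested genes 0 passed, where 0.0562% of all genes were called and the median difference of all genes, old minus young, was -0.01. Il1r2 had the lowest adjusted p, 0.776 in limma, with a difference of -0.71 (SE 0.27) and 0 of 6 old libraries above the young median. Trem1 relative to Csf1r was the 1 member ratio without overlap between ages. Its log2 ratio ran from -4.75 to -4.26 in young tumors and from -5.31 to -4.84 in old ones. In TPM, Trem1 stood at 5.01% to 7.09% of Csf1r in young tumors and at 3.30% to 4.63% in old ones. Ranges without overlap occurred in 0.281% of all genes. The Trem1 difference of -0.49 had a limma SE of 0.24 and a limma adjusted p of 0.99993, and stayed between -0.54 and -0.43 whichever library was left out. limma pools the spread of genes that all share the noise of the reference. An exact permutation test of the age labels over samples, chosen after seeing the data, gave p = 0.00216, the smallest it can give, and an adjusted p of 0.745 over all genes. The same exact test gave p = 0.0260 for Il1r2, with an adjusted p of 0.918, and 4.71% of all genes were under an unadjusted exact p of 0.05.

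**Figure D3:**
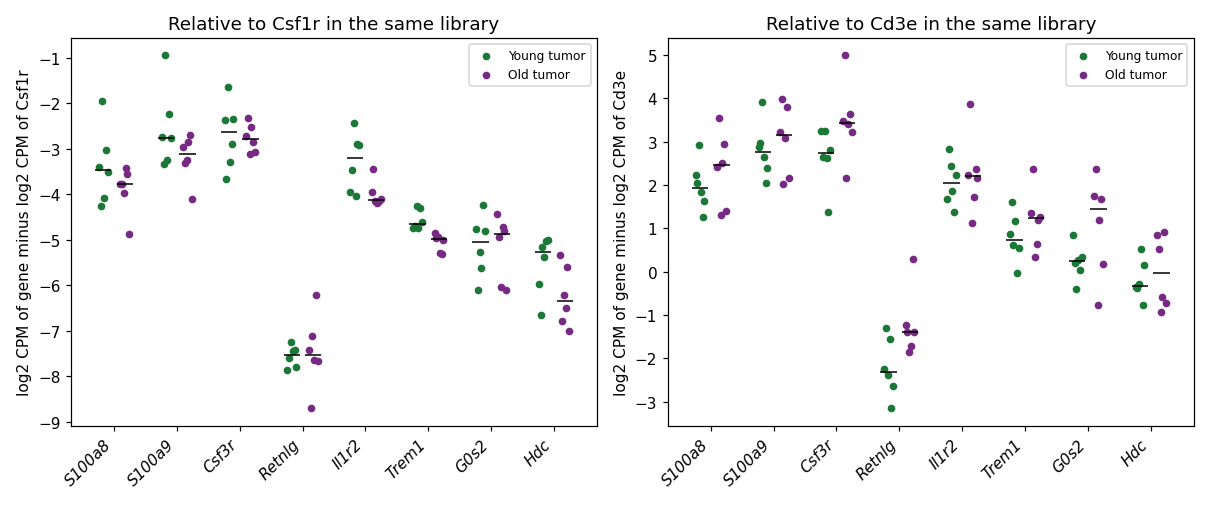
The log2 CPM of each tested neutrophil gene minus that of Csf1r (left) or Cd3e (right) in the same library is plotted, with a point for each library and a bar at the median of an age. Trem1 relative to Csf1r is the 1 gene whose young (-4.75 to -4.26) and old (-5.31 to -4.84) points do not overlap.

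The other differences relative to Csf1r were -0.53 for S100a8, -0.65 for S100a9, -0.71 for Hdc, -0.07 for Csf3r, -0.04 for G0s2 and 0.10 for Retnlg. Each had a limma adjusted p of 0.99993. The Hdc ratio had 0 of 6 old libraries above the young median, as Il1r2 and Trem1 did. Csf3r, G0s2 and Retnlg lay near 0 and changed sign when single libraries were left out. Over the same leave-outs the difference ran from -0.70 to -0.24 for S100a8 and from -0.81 to -0.33 for S100a9. For Hdc it ran from -0.93 to -0.56.

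Relative to Cd3e, all 8 tested genes lay above 0 and 0 of them passed, where 0.806% of all genes were called. All genes together had a median difference of 0.88 on this scale, since Cd3e itself was lower in old tumors by about that amount without passing the test. Retnlg at 1.0 was the only one of the 8 above that median. G0s2 at 0.85 and Csf3r at 0.82 were just below it. S100a8 at 0.37, S100a9 at 0.24, Il1r2 at 0.18, Trem1 at 0.40 and Hdc at 0.18 lay further below. The Retnlg ratio was above the young median in all 6 old libraries, with a limma adjusted p of 0.155. Its exact permutation p was 0.0325 (adjusted 0.164), beside 27.7% of all genes under an unadjusted exact p of 0.05.

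Relative to Csf3r, a comparison among neutrophil genes, 0 of the 7 others passed, where 0.162% of all genes were called and the median of all genes was 0.07. S100a8 at -0.45, S100a9 at -0.58 and Il1r2 at -0.64 each had 0 of 6 old libraries above the young median. The Il1r2 ratio had an exact permutation p of 0.0476 and an adjusted p of 1.0, beside 0.781% of all genes under an unadjusted exact p of 0.05. Hdc at -0.63 and Trem1 at -0.42 lay below 0, and Retnlg at 0.18 and G0s2 at 0.03 above. In all, 23 ratios of neutrophil genes to a reference were tested, and the 3 sets share the same libraries.

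Across the 12 libraries all 36 pairs of neutrophil genes had a positive Pearson r of log2 CPM, with a median of 0.62, and 16 pairs had an adjusted permutation p under 0.05 over the 55 pairs of the 9 genes and 2 references. By Spearman's rho 17 pairs did. Among 14450 tested genes with a mean of at least 1 CPM, 50.3% of all pairs had an r above 0 and 4.74% an r at or above that median of 0.62. The median r was 0.69 within the young libraries and 0.69 within the old ones. It was 0.64 when each pair left out the 2 libraries farthest from the median of its first gene, in the order listed. In TPM the median was 0.61, with 8 pairs under 0.05. All members share each library's scaling and tissue make-up, so these are correlations between pieces and not between cells.

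S100a8 and S100a9 had the highest r, 0.99, with a Spearman rho of 0.96 and the smallest permutation p that 100000 resamples allow, 9.9999e-06 (adjusted 0.00055). Without Old tumor 6 and Young tumor 3 it was 0.96, and within the ages it was 0.99 and 0.98. Il1r2 and Trem1 followed at 0.87 (rho 0.86, adjusted permutation p = 0.00577), and at 0.82 without Young tumor 3 and Young tumor 6. S100a8 and Csf3r had an r of 0.83 (rho 0.87, adjusted permutation p = 0.00862), and 0.84 without Old tumor 6 and Young tumor 3. The lowest r was that of S100a8 with Stfa2l1, 0.16 (rho 0.16, adjusted permutation p = 0.615). It was 0.66 without Old tumor 6 and Young tumor 3, so the low value rests on those libraries.

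**Figure D4:**
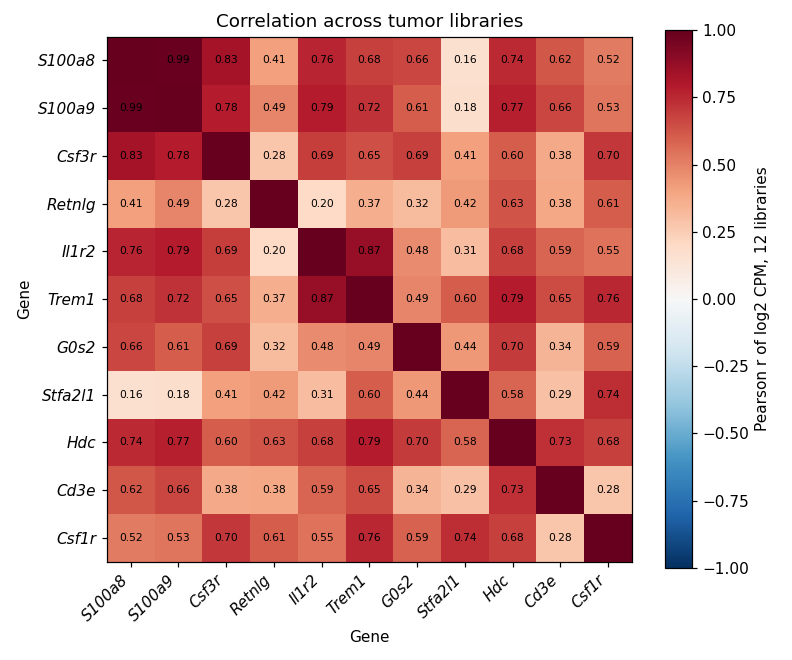
The heat map gives Pearson r of log2 CPM over the 12 libraries for every pair of the 9 neutrophil genes, Cd3e and Csf1r, with color running from -1 to 1. Every pair of neutrophil genes is above 0, S100a8 with S100a9 is the darkest at 0.99, and Stfa2l1 and Retnlg have the palest rows.

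The genes also varied with the references. With Csf1r, r was highest for Trem1 at 0.76 (rho 0.66, adjusted permutation p = 0.0296) and lowest for S100a8 at 0.52 (rho 0.73, adjusted permutation p = 0.126). Of the 9 genes, 4 passed with Csf1r by Pearson's r and 6 by Spearman's rho, and 3 passed with Cd3e by either. In TPM, Pearson's r passed for 2 of the 4 with Csf1r, Csf3r and Trem1, and for 0 with Cd3e. The other 3 that passed with Csf1r by Pearson's r were Stfa2l1 at 0.74, Csf3r at 0.70 and Hdc at 0.68. For Stfa2l1, r in CPM was 0.27 without its 2 farthest libraries, Old tumor 1 and Old tumor 4, so on that scale the relation rests on them. In TPM its r was 0.70, and 0.71 without the 2 farthest on that scale, Old tumor 4 and Young tumor 2. Il1r2 at 0.55, G0s2 at 0.59, Retnlg at 0.61 and S100a9 at 0.53 did not pass. By Spearman's rho, S100a9 (0.80, adjusted permutation p = 0.0199), Retnlg (0.78, adjusted 0.0227) and S100a8 (0.73, adjusted 0.0330) passed with Csf1r, and Stfa2l1 (0.48, adjusted 0.172) did not. With Cd3e, Hdc at 0.73, S100a9 at 0.66 and Trem1 at 0.65 passed. For these 3 in that order, r with Cd3e was 0.81, 0.76 and 0.68 within the 6 young libraries. Within the 6 old ones it was lower, at 0.59, 0.40 and 0.47. S100a8 at 0.62, Il1r2 at 0.59, Csf3r at 0.38, Retnlg at 0.38, G0s2 at 0.34 and Stfa2l1 at 0.29 did not. Cd3e and Csf1r themselves had an r of 0.28 (rho 0.42, adjusted permutation p = 0.411).

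The genes most like each neutrophil gene were taken from 12838 tested genes with a mean of at least 1 CPM and a symbol that is not a predicted name, as a description with no p. Il1r2 was most like Cxcr2, the receptor for neutrophil-attracting chemokines, with an r of 0.91, then Ncf1, a subunit of the phagocyte NADPH oxidase, at 0.91 and Rab44 at 0.89. Csf3r was most like Rasgrp4 at 0.92, Cd300lf at 0.88 and the gelatinase gene Mmp9 at 0.88. Trem1 was most like Sirpb1c at 0.97, the lysosomal protease gene Ctss at 0.94 and Ptpn7 at 0.93. S100a8 and S100a9 each ranked the other first. After that came Slco3a1 at 0.90, H2-Q10 at 0.87 and the Src-family kinase gene Fgr at 0.85 for S100a8. The same 3 genes followed for S100a9, at 0.87, 0.85 and 0.86. Hdc was most like Rab32 at 0.92, Tmem229b at 0.91 and Trafd1 at 0.89. G0s2 was most like the cytokine receptor gene Il21r at 0.91, Acot2 at 0.91 and Susd3 at 0.89. Retnlg was most like P3h4 at 0.86, Igsf6 at 0.82 and the macrophage gene Mpeg1 at 0.81. Not every member was near the top of another's ranking. Among the 12838 genes, Il1r2 had rank 4617 and Csf3r rank 3342 in likeness to Retnlg, and Trem1 had rank 1374 in likeness to G0s2.

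Other genes of mature neutrophils gave no calls. Of 20 listed, 19 were in the table and 13 were tested, with 7 above 0, 6 below and a median log2 fold change of 0.03. Cxcr2 ranged from 2.50 to 15.8 CPM in young tumors and from 2.25 to 9.03 in old ones, with a log2 fold change of -0.76 (SE 0.47, adjusted p = 0.366 by edgeR). Fpr1, a receptor for formylated peptides, had 0.78 and Wfdc17 0.44. Ly6g, the usual surface marker of mouse neutrophils, was close to absent at 0.0413 to 0.303 CPM and was not tested. Of 12 granule and precursor genes, 4 were tested and 0 called, with log2 fold changes of 0.88 for Chil3, -0.47 for Lcn2, -0.81 for Ltf and 0.73 for Prtn3. Levels within this list were far apart. Lcn2 ranged from 49.2 to 271 CPM across libraries and Ltf from 13.2 to 176, whereas Ngp reached at most 4.19 CPM and Camp at most 1.296. The cell source of the Lcn2 and Ltf transcripts was not tested. Mpo and Elane, granule genes of immature neutrophils, had 0 counts in 9 of 12 libraries each. Prtn3, from the same list, was found in every library, at 0.502 to 1.57 CPM in young tumors and 0.250 to 3.62 in old ones. Of the 11 stefin A genes listed, 9 were in the table and 1 was tested, Gm5483, at -0.16.

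Signals upstream of the neutrophil genes were measured as well. Of 10 chemoattractants and growth factors, 9 were tested, 2 above 0 and 7 below, with a median of -0.12 and 0 calls. Cxcl5, a CXCR2 ligand, ranged from 44.2 to 253 CPM in young tumors and from 63.9 to 160 in old ones, with a log2 fold change of -0.62 (SE 0.33, adjusted p = 0.301 by edgeR). Cxcl1 had -0.76, Cxcl3 -0.45 and Ppbp 0.96. Among 19 partners of the members' proteins, 18 were tested and 0 called, with 10 above 0 and 8 below. The lysosomal cathepsin gene Ctsl had -0.32, the signalling interleukin-1 receptor gene Il1r1 0.27, its antagonist gene Il1rn -0.36 and the receptor gene Ager 0.26.

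The exception was a transcription factor. Cebpb, which encodes C/EBP-beta and is needed when neutrophil output is raised in infection, was called lower in old tumors by the main test. It ranged from 80.5 to 158 CPM in young tumors and from 51.8 to 78.7 in old ones. Its ranges did not overlap, as was so for 2.97% of all tested genes. Its log2 fold change was -0.67 (SE 0.16, adjusted p = 0.0484 by edgeR). That call was lost in 10 of the 12 fits that left out 1 library, up to an edgeR adjusted p of 0.109, and was kept only without Young tumor 3 or without Old tumor 1. It was lost as well with total-count scaling, no filter, TPM, a replicate block or a length correction, at adjusted p-values of 0.0552 to 0.112 by edgeR or limma. It was the 1 called of 5 tested among 6 neutrophil transcription factors, all 5 below 0 with a median of -0.40, beside 1.47% of all genes called lower in old. Cebpd had -0.40, Gfi1 -0.49 and Spi1, which encodes PU.1, -0.17. Cebpb is also made by macrophages, fat cells and epithelium, and the source of its transcripts was not tested.

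Markers of other cells that express some of the 9 genes were counted beside them. The 12 monocyte and macrophage markers summed to 1098 to 1618 CPM in young tumors and 944 to 2244 in old ones, highest in Old tumor 1, with 8 above 0, 4 below and 0 called. All 8 T cell markers lay below 0, with 0 called and 4 at an unadjusted edgeR p under 0.05 (21.1% of all genes), and summed to 17.96 to 42.0 CPM in young tumors and 8.75 to 32.3 in old ones. Of 8 eosinophil markers 3 were tested, all below 0, and 0 called. Squamous epithelium, which can also make S100A8 and S100A9, had 5 of 11 markers tested and 0 called. Its sums were 326 to 478 CPM in young tumors and 308 to 766 in old ones. The largest parts were Sprr1a (180 to 341 CPM in young tumors, 166 to 531 in old ones) and Ivl (107 to 207 and 117 to 293). The keratin gene Krt14 reached at most 26.3 CPM in any library, and Krt5 at most 0.386, so the sums do not measure the list evenly. Of 8 adipocyte markers 3 were tested, all 3 above 0 and at an unadjusted edgeR p under 0.05 (21.1% of all genes). Plin4, a lipid-droplet gene, was the 1 called, where 0.793% of all genes were called higher in old. Its edgeR adjusted p was 0.0353 and its log2 fold change 2.27 (SE 0.48). The Plin4 call was lost in 9 of the 12 fits that left out 1 library, those without Young tumor 3, Old tumor 1 or Old tumor 6 being the exceptions. Of 8 erythrocyte and platelet markers 6 were tested, 4 above 0 and 2 below, of 10 acinar markers 2, both below 0, and of 8 ductal markers 8, 2 above 0 and 6 below, with 0 called in each list. Their part in the values of the neutrophil genes was not tested.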

How the data were processed

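RNA from tumor pieces was extracted with the PureLink kit, kept at a RIN above 8, selected for poly(A) and made into NEBNext Ultra Directional libraries, per the labels' protocols. Reads were processed with cutadapt 2.3, STAR 2.7.0d and RSEM 1.3.1 on mm10, per the submitters' processing notes; which annotation, read length and strand setting were used is not given in the sources used here. Both expected counts and TPM were deposited by the authors, for 47643 genes and 12 libraries. Of the expected counts as deposited, entries were whole in 86.0% to 88.2% of cases (tolerance 0), and all were rounded for testing. The deposited TPM values were used to compare levels between genes and as an alternative scale.

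Libraries were grouped by label, 6 Young tumor and 6 Old tumor. The main test was edgeR 4.0.16 in R 4.3.3 (TMM, filterByExpr, quasi-likelihood F test, two-sided, Benjamini-Hochberg over 16013 genes, adjusted p under 0.05), without a replicate block. CPM uses TMM-scaled totals, and log2 CPM a prior count of 2. Ratios to Csf1r, Cd3e and Csf3r were tested with limma 3.58.1 over all genes. Correlations used 100000 permutations (scipy 1.17.1), exact within an age. Intervals are 95%. Coordinates come from GENCODE vM21 on GRCm38, the assembly of mm10.

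The 17 gene lists, the members and references among them, were chosen with earlier results of these data known. Named were all 9 members and both references, up to 4 genes of each list with the smallest p, and the 3 most like genes for each member, leaving out predicted gene names and other members. Of the lists of other cell types, only genes set beside a result are printed, so not all genes that the rule names appear, and 1 more is not reported here. The other named genes, Ly6g, Mpo, Elane, Camp, Ngp and Krt5, were chosen after their values were seen. Alternatives were other scalings, DESeq2 1.42.0, limma-voom with quality weights, other filters, TPM, a length correction, a replicate block, a threshold of 0.1, other references and each library left out. The fit without Young tumor 3 and Old tumor 1 together was added after seeing the data, as was the exact permutation of ratios. The edgeR test and the limma test of ratios to Csf1r were also run on simulated data, and the outcome is not reported here.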

Additional observations from a re-analysis of the deposited data

Results flagged for a closer look

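S100a9 in Young tumor 3 stood far from the other young libraries, at 65.6 CPM or 6.04 on the log2 scale. Its gap to the next library was 0.634 of the group's range, just above Dixon's 95% critical value for 6 samples. Of 22 groups checked, 1 passed, and chance passes about 1 in 20.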

How the results depend on the processing

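In the fold changes between ages, none of the settings run called a neutrophil gene, and the calls over all genes moved far more than the members did. Against 362 genes in edgeR, DESeq2 called 1439, limma-voom 977, the fit without a filter 151, a replicate block 1, a length correction 2, a threshold of 0.1 on the adjusted p 1256, and the fit without Young tumor 3 and Old tumor 1 together 1068. The split of 127 higher and 235 lower was 152 and 143 with total-count scaling, and 291 and 48 on log2(TPM + 1), which moved the median over all genes from 0.03 to 0.13. RLE and upper-quartile scaling and a stricter filter kept the count of calls within 1.5 times. Leaving out 1 library gave 2 to 1106 calls and 0 members. The 8 tested members had a median log2 fold change of -0.64 in limma-voom, with 8 below 0. On log2(TPM + 1) it was -0.28, with 5 below 0.

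Directions changed for limma-voom in Retnlg (-0.30), G0s2 (-0.26) and Csf1r (-0.084), for TPM in Csf3r (0.24 and 0.28 with pseudocounts of 1 and 0.1), for the length correction in Csf1r (-0.063), and without Young tumor 3 and Old tumor 1 together in G0s2 (-0.32) and Csf1r (-0.081). Over single leave-outs the log2 fold change ran from -0.44 to 0.12 for Csf3r, -0.32 to 0.31 for G0s2 and -0.14 to 0.16 for Csf1r.

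For ratios to Csf1r, 9 genes were called, 107 with a replicate block, 0 by exact permutation and 6 to 19 with a library left out; the Csf3r ratio was 0.092 in TPM. Leave-outs ran from -0.27 to 0.14 for Csf3r, -0.23 to 0.14 for G0s2 and -0.15 to 0.35 for Retnlg. For ratios to Cd3e, 129 were called, 12147 of 16012 with the block, 1061 with the T cell list as reference, 0 by exact permutation and 39 to 9748 with a library left out. The block also called 2 members, Csf3r (0.82, limma adjusted p = 0.0217) and G0s2 (0.85, limma adjusted p = 0.0354). Leave-outs ran from -0.14 to 0.40 for Il1r2. For ratios to Csf3r, 26 were called, 16 with the block, 0 by exact permutation and 17 to 34 with a library left out; Retnlg was -0.040 and G0s2 -0.16 in TPM. Leave-outs ran from -0.21 to 0.25 for G0s2 and -0.088 to 0.52 for Retnlg. Exact permutation cannot give a p below 0.00216, a floor too high for a call over all genes unless many share it. Its 0 calls therefore cannot decide whether a ratio differed. The cause of the changes between settings was not tested.

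No link between libraries of the same replicate number is stated. Same-numbered libraries correlated at 0.14, 0.03, 0.14, 0.01, -0.09 and -0.23 in their deviations. For replicates 1 and 3, 0 old libraries had a higher r with the young library than the same-numbered one. For replicates 2, 4, 5 and 6, from 2 to 5 did. These values cannot decide whether numbers pair the libraries. The depth limits Retnlg and Stfa2l1 most, since the lowest counts of 4 and 1 have 95% Poisson limits of 1.09 to 10.2 and 0.0253 to 5.57, for counting error alone.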
